A study of Rattus norvegicus with 18 samples.

Results

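Transcript levels of Nr3c1, which encodes the glucocorticoid receptor, and of the glucocorticoid-responsive genes Sgk1 and Per1 were followed in the rat brain after inhibitory avoidance training. The 3 genes were chosen by name and identifier (Nr3c1, ENSRNOG00000014096; Sgk1, ENSRNOG00000011815; Per1, ENSRNOG00000007387) from the 32662 genes counted. The choice was made with earlier results of these data known. All 3 passed the filter on low counts in each fit. By edgeR's test Per1 was higher 1 h after training in the dorsal hippocampus (dHC) and in the prelimbic cortex (PL), and Nr3c1 was called in neither region. Sgk1 had nearly the same log2 fold change in both regions at 1 h and passed the threshold in PL only, a call that was lost in 3 of 15 alternatives, while in dHC it was called in 8 of 15. At 6 d none of the 3 was called against untrained rats, a comparison in which edgeR called 0% of all genes tested in either region.

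The animals were adult Long-Evans rats, an outbred strain, in 3 conditions. Naive rats stayed in the home cage. The other rats were trained in inhibitory avoidance, in which a rat learns to keep out of a compartment where its feet were shocked, and were killed 1 h or 6 d later. Frozen brains were punched for dHC and PL, and each library held pooled RNA from 5 rats. There were 3 such pools per region and condition, and 18 libraries in all. None of the groups analysed here met the box or the shock alone, so the effects of shock, handling and learning cannot be told apart. The labels give neither the sex of the rats nor the hour of the day at which they were killed.

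Glucocorticoids such as corticosterone, the main one of the rat, are released by the adrenal cortex under stress. They bind Nr3c1 in the cytoplasm, and the loaded receptor moves to the nucleus and acts on genes as a transcription factor. Hippocampus and prefrontal cortex both carry the receptor and take part in the feedback that ends the stress response. Sgk1 is a serine/threonine kinase that acts on ion channels, transporters and transcription factors. Per1 is a core repressor of the circadian clock, whose promoter also answers to cyclic AMP signalling, so that its transcript can rise with neuronal activity as well as with glucocorticoids.

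The sequence around the listed transcript starts of Per1, Sgk1 and Nr3c1 was examined in RefSeq windows of the newer assembly GRCr8. Each window had 250 bases before a start and 50 after it. The counts were made on Rnor_6.0, so these coordinates do not apply to them. The table held 1 window for Per1, 3 for Sgk1 and 2 for Nr3c1. The window of Per1 and the Sgk1 windows with a TATA box are shown 5′ to 3′ on the strand of the gene. The Per1 window is chr10:54304126-54304425 on the plus strand, and the Sgk1 windows are chr1:24807182-24807481 and chr1:24804782-24805081 on the minus strand. Capitals mark the TATA box TATAAA and the GC box GGGCGG on either strand, which did not overlap each other.
Per1 window: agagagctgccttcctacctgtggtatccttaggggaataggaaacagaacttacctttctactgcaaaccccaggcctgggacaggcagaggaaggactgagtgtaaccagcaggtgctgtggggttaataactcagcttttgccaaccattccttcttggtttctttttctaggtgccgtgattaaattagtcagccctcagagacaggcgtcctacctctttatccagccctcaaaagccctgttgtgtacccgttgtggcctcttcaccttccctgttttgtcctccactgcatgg
Sgk1 window 1: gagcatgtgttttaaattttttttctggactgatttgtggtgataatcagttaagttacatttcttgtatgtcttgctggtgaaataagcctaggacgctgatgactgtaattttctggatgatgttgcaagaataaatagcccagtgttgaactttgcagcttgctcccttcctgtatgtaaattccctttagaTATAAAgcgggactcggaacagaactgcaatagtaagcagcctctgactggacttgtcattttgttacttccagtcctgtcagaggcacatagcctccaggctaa
Sgk1 window 3: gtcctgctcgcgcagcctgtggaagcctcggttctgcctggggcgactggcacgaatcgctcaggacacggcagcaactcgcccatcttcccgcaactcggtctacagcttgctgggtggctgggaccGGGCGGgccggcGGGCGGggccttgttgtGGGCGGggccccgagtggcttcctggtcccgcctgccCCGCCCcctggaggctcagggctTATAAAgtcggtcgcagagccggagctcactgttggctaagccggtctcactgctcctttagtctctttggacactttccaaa

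The windows differed in base composition. The Per1 window held 50.3% G and C and neither box. Window 1 of Sgk1 held 40.7% G and C and a TATA box beginning 55 bases before the start. Window 2 of Sgk1, which is not shown, held 51.7% G and C, 2 GC boxes and no TATA box. Window 3 of Sgk1 held 66.0% G and C, 4 GC boxes and a TATA box beginning 33 bases before the start. The Nr3c1 windows held 66.0% and 79.0% G and C with 1 and 4 GC boxes and no TATA box, and 1.09% of all windows had more G and C than the second. In that second window the GC boxes beginning 13 and 9 bases before the start shared bases. Among 33469 windows the median was 51.7% G and C, 33.1% held GGGCGG and 14.2% held TATAAA.

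Motifs tied to glucocorticoid, cyclic AMP and clock control were then searched on both strands. The palindromic glucocorticoid response element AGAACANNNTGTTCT was in 0 of the 6 windows and in 0.0149% of all windows, and its single arm AGAACA, which the palindrome contains, in 0 of 6 and in 20.7%. The cyclic AMP response element TGACGTCA was in 0 of 6 and in 1.83% of all windows, and its core TGACG, which it contains, in 0 of 6 and in 21.2%. The E-box CACGTG, the site of the clock activators, was in 0 of 6 and in 6.42%. These letters are therefore not in these windows, which leave out more distant sequence and any start that the table does not list.

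Reads assigned to genes ran from 7463875 to 9215695 per library, and reads outside gene models made up 10.1% to 13.6% of all reads. The dHC pools at 1 h, with 8914752 to 9136114 counts, were all deeper than the naive dHC pools, with 7687831 to 8874826. Levels are given as CPM (gene counts relative to the library total), scaled by the trimmed mean of M values (TMM), with factors of 0.970 to 1.03. The 3 genes had between 251 and 1278 counts in every library, far above the limit of 3 counts, which equals 0.326 to 0.402 CPM. CPM is not divided by transcript length, so levels are compared between groups for 1 gene and not between genes. In these bulk punches more RNA per cell and more cells carrying the transcript cannot be told apart. Marker genes of region and cell type could not be examined, because the tables hold gene identifiers that the reference table used here does not pair with symbols, with 0 of 32662 matched.

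**Figure D1:**
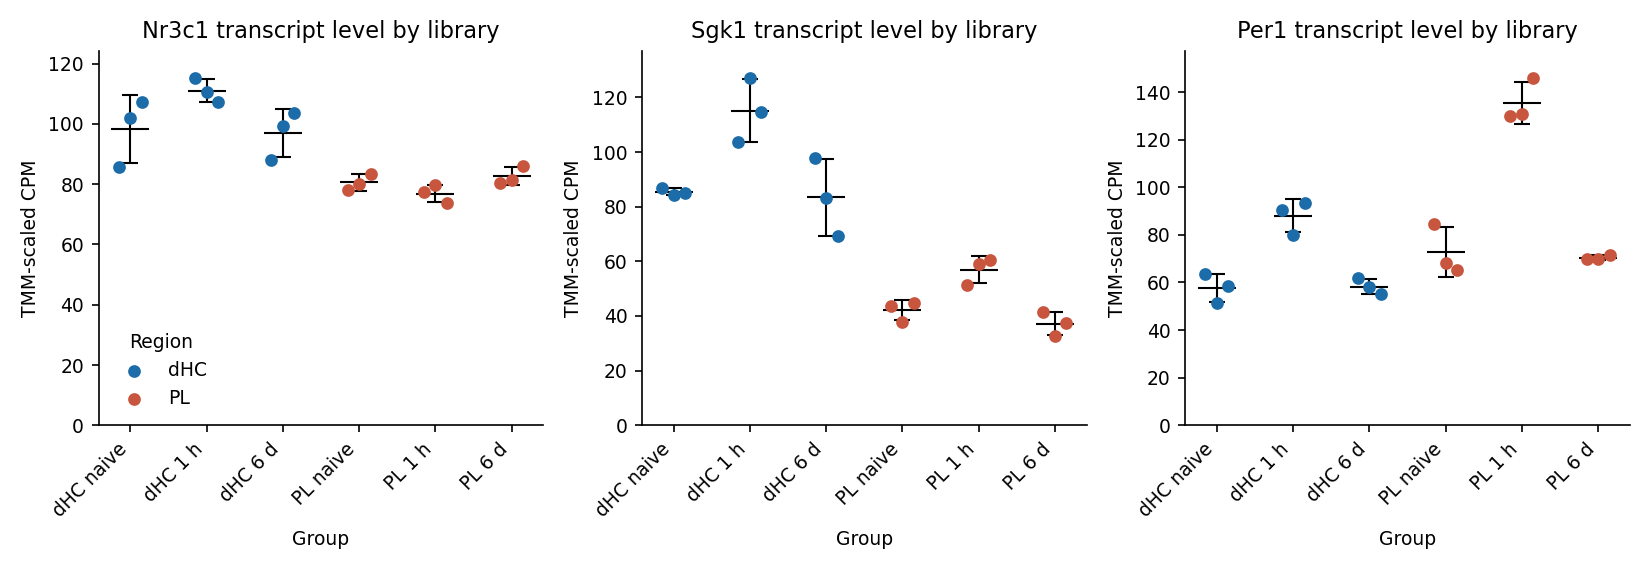
Level of Nr3c1, Sgk1 and Per1 (TMM-scaled CPM, linear axis from 0) in each of the 18 libraries, by group. Points are pools in the order 1 to 3, blue for dHC and red for PL, and the black bars give the mean and SD of 3 pools. Per1 in PL at 1 h lies between 130.1 and 145.7 CPM, above every other Per1 value, and Sgk1 is higher in dHC than in PL in every condition.

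Nr3c1, the receptor, was described first. In dHC its level was 85.8, 102 and 107.2 CPM in the 3 naive pools, 115, 111 and 107.4 CPM in the 1 h pools and 88.1, 99.2 and 104 CPM in the 6 d pools. The 1 h pools were all at the top of this range, though the lowest of them lay just above the highest naive pool, and with CPM on the plain library total the naive and 1 h pools overlapped. Among all genes tested in dHC, 9.3% had all 1 h pools above all naive pools. The means were 98.4 ± 11.2 CPM in naive dHC, 111 ± 3.85 CPM at 1 h and 97.0 ± 8.03 CPM at 6 d (SD, n = 3 each).

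At 1 h the log2 fold change of Nr3c1 in dHC was 0.18 (SE 0.08, 95% interval 0.01 to 0.34). Without naive pool 1 of dHC, its lowest naive pool, it was 0.08 (edgeR adjusted p = 0.862). With all pools, an unadjusted p of 0.0414 and an edgeR adjusted p of 0.459 over 14305 genes made no call, where 0.217% of all genes were called higher, and Nr3c1 took 1979th place by log2 fold change among those genes. Between 6 d and 1 h the difference in dHC was −0.19 (SE 0.08, edgeR adjusted p = 0.264), without overlap of the pools. Libraries did not overlap in this lower direction for 9.4% of all genes.

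In PL the receptor transcript lay between 73.8 and 86.0 CPM in all 9 pools. It was at 78.0, 80.2 and 83.6 CPM in naive pools, 77.4, 79.6 and 73.8 CPM at 1 h and 80.5, 81.3 and 86.0 CPM at 6 d. Pools of naive rats overlapped with those of both trained groups. The 6 d pools all lay above the 1 h pools, as for 9.99% of all genes, but overlapped them with CPM on the plain library total. Between 6 d and 1 h the log2 difference was 0.10 (SE 0.07, edgeR adjusted p = 0.489). The log2 fold change against naive was −0.06 at 1 h (SE 0.07, 95% interval −0.20 to 0.08, edgeR adjusted p = 0.728) and 0.04 at 6 d (SE 0.07, 95% interval −0.10 to 0.18, edgeR adjusted p = 0.999). These intervals leave room for a fall to 0.87-fold at 1 h or a rise to 1.14-fold at 6 d.

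Per1, the clock repressor, had the largest log2 fold change of the 3 genes at 1 h in both regions. Its level in PL was 84.7, 68.2 and 65.3 CPM in naive pools, 130.1, 131 and 145.7 CPM at 1 h and 69.8, 69.7 and 71.6 CPM at 6 d. Every 1 h pool lay above every naive and every 6 d pool, and the 6 d pools lay inside the naive range. Among all genes tested in PL, 10.5% had all 1 h pools above all naive pools and 9.99% had all 6 d pools below all 1 h pools. The mean went from 72.7 ± 10.5 CPM in naive PL to 135.5 ± 8.80 CPM at 1 h (SD, n = 3).

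The rise of Per1 in PL was 1.87-fold (95% interval 1.67 to 2.10). On the log2 scale edgeR put it at 0.90 (SE 0.08) with an adjusted p of 2.14e-07. Per1 took 59th place by log2 fold change among 14318 genes, of which 0.782% were called higher. The called genes that rose in PL had a median log2 fold change of 0.70. At 6 d Per1 in PL was lower than at 1 h by a log2 difference of −0.95 (SE 0.08, edgeR adjusted p = 1.05e-07), where 1.05% of all genes were called lower. Both of these comparisons rest on the same 1 h pools.

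In dHC, Per1 was at 63.4, 51.6 and 58.3 CPM in naive pools, 90.5, 80.1 and 93.3 CPM at 1 h and 61.7, 58.1 and 55.1 CPM at 6 d. The 1 h pools again lay above all others. In dHC 9.3% of all genes tested had their 1 h pools above the naive pools and 9.4% above the 6 d pools. The mean went from 57.8 ± 5.95 CPM in naive dHC to 87.9 ± 6.93 CPM at 1 h (SD, n = 3). This was a rise of 1.52-fold (95% interval 1.35 to 1.71), or 0.60 on the log2 scale (SE 0.08), with an edgeR adjusted p of 0.000974. The median of the genes called higher in dHC was 0.52. By log2 fold change Per1 came 122nd, behind genes that were mostly not called. At 6 d Per1 in dHC was lower than at 1 h by a log2 difference of −0.59 (SE 0.08, edgeR adjusted p = 0.00113), where 0.699% of all genes were called lower.

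Per1 was 1 of 15 genes called higher at 1 h in both regions, among 13905 genes tested in both. Neither Sgk1 nor Nr3c1 was among them.

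Sgk1, the kinase, was higher at 1 h than in naive rats in every pool of both regions, with smaller log2 fold changes than Per1. In PL it was at 43.6, 37.8 and 44.7 CPM in naive pools, 51.5, 59.0 and 60.5 CPM at 1 h and 41.5, 32.8 and 37.5 CPM at 6 d. The 1 h pools were the 3 highest, and the naive and 6 d pools overlapped. Of all genes tested in PL, 10.5% had their 1 h pools above the naive pools and 9.99% above the 6 d pools. The mean went from 42.0 ± 3.68 CPM in naive PL to 57.0 ± 4.82 CPM at 1 h (SD, n = 3).

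This rise of Sgk1 in PL was 1.36-fold (95% interval 1.20 to 1.56), or 0.45 on the log2 scale (SE 0.09), with an edgeR adjusted p of 0.0126. Sgk1 took 418th place by log2 fold change among 14318 genes, of which 0.782% were called higher. The call of Sgk1 was lost when naive pool 2, 1 h pool 2 or 1 h pool 3 of PL was left out, with edgeR adjusted p of 0.0935, 0.0876 and 0.0943. Over its 15 alternatives the adjusted p lay between 5.22e-05 and 0.0943. At 6 d Sgk1 in PL was lower than at 1 h by a log2 difference of −0.61 (SE 0.09, edgeR adjusted p = 0.000489), and this call held in all 15 alternatives. In that comparison 1.05% of all genes were called lower.

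In dHC, Sgk1 was at 87.0, 84.4 and 85.1 CPM in naive pools, 104, 126.9 and 115 CPM at 1 h and 97.7, 83.3 and 69.4 CPM at 6 d. All 1 h pools lay above all naive and 6 d pools, and the 6 d pools spread to either side of the tightly grouped naive ones. Of all genes tested in dHC, 9.3% had their 1 h pools above the naive pools and 9.4% above the 6 d pools. The mean was 85.5 ± 1.32 CPM in naive dHC and 115 ± 11.6 CPM at 1 h (SD, n = 3).

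The log2 fold change of Sgk1 in dHC at 1 h was 0.43 (SE 0.09, 95% interval 0.23 to 0.62), nearly that in PL, with an edgeR adjusted p of 0.0681, which missed the threshold of 0.05. It came 342nd by log2 fold change among 14305 genes, of which 0.217% were called higher. In 8 of 15 alternatives Sgk1 passed, among them DESeq2 (adjusted p = 0.00843), a fit of only the groups compared (edgeR adjusted p = 0.00224) and fits without 6 d pool 1, 2 or 3 (edgeR adjusted p = 0.0212, 0.0493 and 0.0101). Sgk1 did not pass when any naive or 1 h pool of dHC was left out (edgeR adjusted p = 0.0884 to 0.295). It also missed with RLE size factors (edgeR adjusted p = 0.0657). Over all 15 alternatives the adjusted p was 2.22e-06 to 0.295. Between 6 d and 1 h Sgk1 in dHC differed by −0.46 (SE 0.09), with an edgeR adjusted p of 0.0196. In that comparison 0.699% of all genes were called lower. Leaving out 1 h pool 2, 1 h pool 3 or 6 d pool 2 of dHC ended the call of Sgk1, with edgeR adjusted p of 0.0703, 0.113 and 0.0624. The alternatives as a whole gave 8.38e-08 to 0.113.

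**Figure D2:**
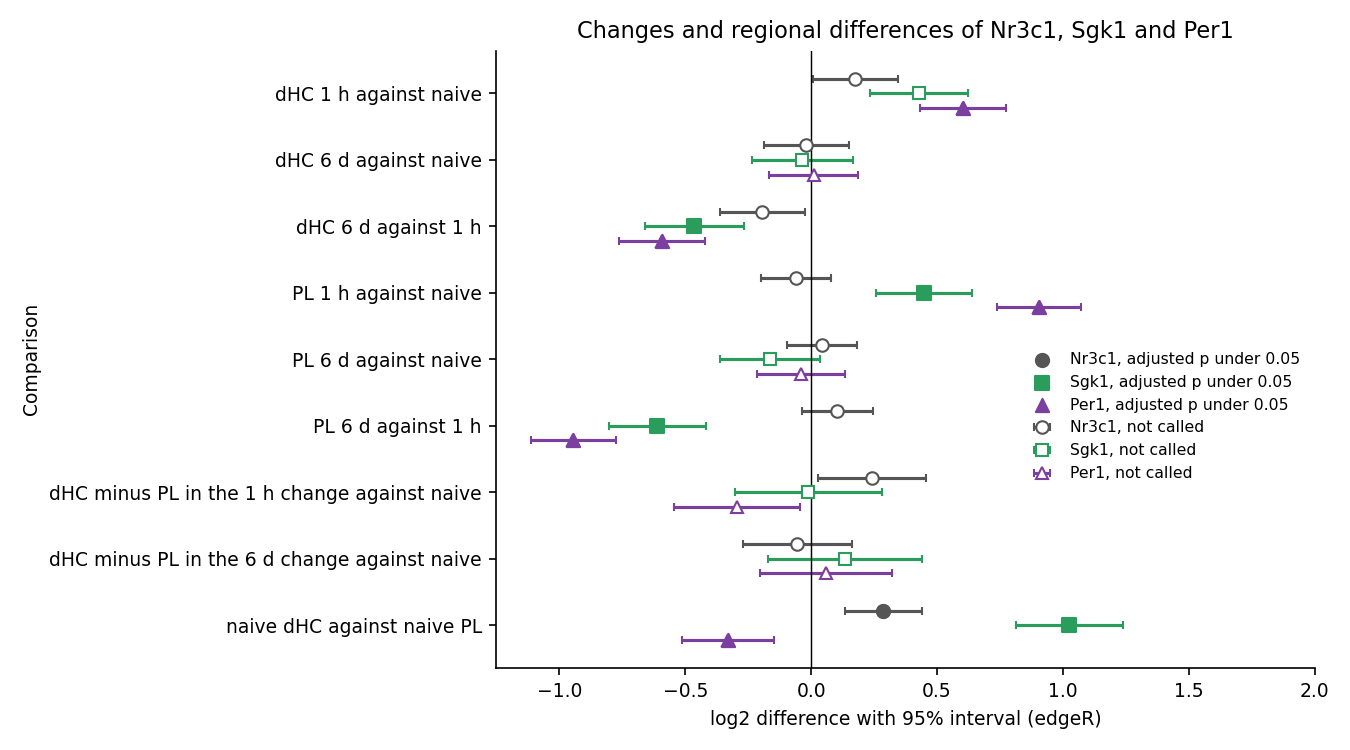
Log2 differences of Nr3c1 (grey circles), Sgk1 (green squares) and Per1 (purple triangles) in 9 comparisons, with 95% intervals from edgeR. Filled symbols have an adjusted p under 0.05. Per1 is filled at 1 h against naive and at 6 d against 1 h in both regions, and every symbol for 6 d against naive is open with an interval across 0.

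Neither region held a call for these genes at 6 d against naive, a comparison in which edgeR called 0 genes in all, or 0% of those tested. The unadjusted p was under 0.05 for 804 of 14305 genes in dHC and 497 of 14318 in PL, and DESeq2 called 1 and 0 genes. The 6 d level of Per1 was 58.3 ± 3.32 CPM in dHC and 70.4 ± 1.10 CPM in PL (SD, n = 3). Its log2 fold change against naive was 0.01 in dHC (95% interval −0.17 to 0.19) and −0.04 in PL (95% interval −0.22 to 0.13). That of Sgk1 was 83.5 ± 14.1 CPM in dHC and 37.2 ± 4.37 CPM in PL. Its log2 fold change was −0.04 in dHC (95% interval −0.24 to 0.17) and −0.16 in PL (95% interval −0.36 to 0.04). For Nr3c1 in dHC it was −0.02 (95% interval −0.19 to 0.15). For Per1 the intervals ran from 0.89-fold to 1.14-fold of naive in dHC and from 0.86-fold to 1.10-fold in PL. They do not show that the levels were equal.

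The regions differed in all 3 transcripts in naive rats, by a fit that treated the pools of the regions as unpaired. Sgk1 was 2.04-fold higher in naive dHC than in naive PL (95% interval 1.76 to 2.36), a log2 difference of 1.03 (SE 0.10, edgeR adjusted p = 3.38e-09), and came 879th of 14784 genes ordered from the highest in dHC. Nr3c1 was 1.22-fold higher in naive dHC (95% interval 1.10 to 1.36), a log2 difference of 0.29 (SE 0.07, edgeR adjusted p = 0.0022). Per1 was the reverse, with a log2 difference of −0.33, dHC minus PL (SE 0.09, edgeR adjusted p = 0.00326), or 1.26-fold higher in PL. Of all genes, 22.9% were called higher in dHC and 23.4% higher in PL, so that a call by itself is common in this comparison. Pools of the regions did not overlap for 26.9% of genes in the first direction and 27.4% in the second. Without naive pool 1 of PL, its highest naive pool, Per1 was at −0.20 and no longer called (edgeR adjusted p = 0.0794). Over 22 alternatives this p ran from 0.000464 to 0.0794.

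The order of regions was kept in each condition, without overlap of the regions' pools. This was common: dHC pools lay above PL pools for 28.6% of all genes at 1 h and 25.4% at 6 d, and below them for 28.9% and 25.3%. The ratio of mean Sgk1 level, dHC over PL, was 2.03 in naive rats, 2.02 at 1 h and 2.24 at 6 d. For Nr3c1 it was 1.22, 1.44 and 1.17. For Per1 the ratio of PL over dHC was 1.26 in naive rats, 1.54 at 1 h and 1.21 at 6 d. Over the 6 groups Per1 stood highest in PL at 1 h, followed by dHC at 1 h, naive PL and PL at 6 d, with overlap between neighbours in the last 3 of these, and then by dHC at 6 d and naive dHC, which overlapped each other. Sgk1 stood highest in dHC at 1 h, and its naive and 6 d dHC pools overlapped but lay above all PL pools, where 1 h came before naive and 6 d. Nr3c1 was highest in dHC at 1 h and lowest in PL at 1 h, and PL at 6 d, naive PL and PL at 1 h each overlapped with the next.

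Whether the 1 h change itself differed between regions was tested over all 18 libraries. This fit treated the pools of the regions as unpaired, although brains were punched for both. The log2 change of Per1 differed by −0.29 (dHC minus PL, SE 0.12, 95% interval −0.54 to −0.04), with an unadjusted p of 0.0232 and an edgeR adjusted p of 0.617. For Nr3c1 the difference was 0.24 (SE 0.10, 95% interval 0.03 to 0.46), with an unadjusted p of 0.0282 and an edgeR adjusted p of 0.64, and it was 0.15 without naive pool 1 of dHC (edgeR adjusted p = 0.911). For Sgk1 it was −0.01 (SE 0.14, 95% interval −0.30 to 0.28, edgeR adjusted p = 0.991). None of the 3 was called, in a test that called 0.0338% of 14784 genes as more positive in dHC and 0.0609% as more positive in PL, and 7.08% had an unadjusted p under 0.05. At 6 d the differences were 0.06 for Per1, 0.13 for Sgk1 and −0.06 for Nr3c1, each with an edgeR adjusted p of 1.

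**Figure D3:**
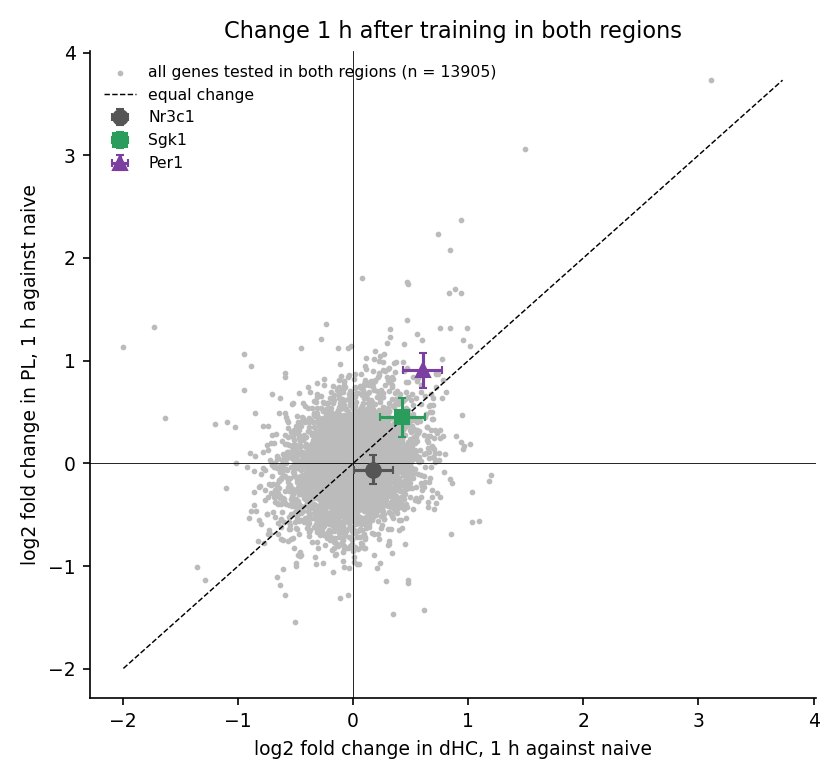
Log2 fold change 1 h after training against naive, in dHC (x axis) and PL (y axis), for 13905 genes tested in both regions (grey points), with Nr3c1, Sgk1 and Per1 drawn with their 95% intervals. The dashed line marks equal change. Per1 lies above that line at 0.60 and 0.90, Sgk1 close to it at 0.43 and 0.45, and Nr3c1 near the centre at 0.18 and −0.06.

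Likeness of pattern was measured as Pearson's r of log2 CPM over the 18 libraries, after the mean of each region was subtracted. The libraries share their condition, and the 1 h pools weigh heavily in this measure, so r is a description. Per1 and Sgk1 had r = 0.853. This made Per1 the 8th most similar of 14783 genes to Sgk1, and Sgk1 the 39th most similar to Per1. Nr3c1 had r = −0.0046 with Sgk1 and −0.017 with Per1. At r of 0.8 or above stood 82 genes for Per1, 33 for Sgk1 and 5 for Nr3c1. The same gene was most like Per1 (r = 0.960) and most like Sgk1 (r = 0.890). It is ENSRNOG00000057078, given by identifier because no symbol was paired with it. Its level was 58.3 ± 6.66 CPM in naive dHC, 85.1 ± 8.45 CPM at 1 h and 60.2 ± 2.44 CPM at 6 d (SD, n = 3). In PL it was 30.2 ± 2.03, 46.6 ± 4.94 and 27.4 ± 2.06 CPM. Its log2 fold change at 1 h was 0.54 in dHC (SE 0.09) and 0.63 in PL (SE 0.09), given as a description because the gene was picked for its likeness over these same pools. Its level in naive rats was higher in dHC by a log2 difference of 0.95, so that it resembled Sgk1, and not Per1, in the order of regions.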

How the data were processed

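RNA sequencing of 18 pools was analysed. Per the labels, each library took 200 ng of RNA, a stranded mRNA kit and 12 PCR cycles, and was read as pairs of 150 nt. The deposited tables hold raw read counts by Ensembl gene. Their 5 rows without a gene were left out of library sizes and tests. Such reads include 42.0% to 51.8% of a library that did not align. The submitters' processing notes name Rnor_6.0, Picard 1.126, bedtools 2.17.0 and DESeq2. For the aligner, the counter, the annotation and the strand setting, nothing is given in the sources used here. In GRCr8, 0 genes of the RefSeq table overlap Nr3c1, Sgk1 or Per1.

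Tests used edgeR 4.0.16 in R 4.3.3 (glmQLFit and glmQLFTest, two-sided, TMM, filterByExpr, Benjamini-Hochberg over all genes tested). Comparisons within a region used its 9 libraries, and comparisons of regions all 18. A call is an adjusted p under 0.05. Standard errors came from the F statistic and intervals are at 95%. Alternatives were DESeq2 1.42.0, RLE size factors, no filter on low counts, only the groups compared, all 18 libraries in one fit, a term for the replicate number and each library left out. The procedure was tested on simulated data.

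The labels call the pools independent. In a chi-square test over genes no replicate pair looked like a repeat of another library, with 1.67 to 4.98 per degree of freedom over 18 pairs. The limit of 3 counts covers counting error only, since PCR copies are not told apart. The members and lists were chosen with earlier results of these data known. All 3 members are named. The 15 lists of pathway and marker genes, with 153 symbols, could not be tested, since 0 identifiers matched a symbol. Other genes were to be named by likeness to Per1 and Sgk1, without a symbol at most 1 for each.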

Additional observations from a re-analysis of the deposited data

How the results depend on the processing

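Per1 kept its direction and its calls at 1 h against naive and at 6 d against 1 h in both regions under all 15 alternatives each. Sgk1 in dHC at 1 h, at 0.43 and not called, was called at 0.43 with DESeq2, without a filter on low counts, with all 18 libraries in one fit and with the replicate block, and at 0.42 with only the groups compared. With each library left out it ran from 0.35 to 0.49. Leaving out a library gave 0.38 to 0.52 for Sgk1 in PL at 1 h and −0.59 to −0.35 for Sgk1 in dHC at 6 d against 1 h, with calls lost as given above, and −0.40 to −0.20 for Per1 between naive regions. Nr3c1, not called, ran from 0.084 to 0.24 in dHC at 1 h and from 0.15 to 0.30 in the regional difference at 1 h, lowest in both without naive pool 1 of dHC. Small differences that were not called changed sign on leaving out a library. At 6 d against naive in dHC these were Nr3c1 (−0.11 to 0.049), Sgk1 (−0.17 to 0.078) and Per1 (−0.062 to 0.082), and in PL Per1 (−0.11 to 0.077). For the regional difference they were Sgk1 at 1 h (−0.097 to 0.050) and, at 6 d, Nr3c1 (−0.15 to 0.0096) and Per1 (−0.069 to 0.13). The cause was not tested.

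Correlations were used to ask whether replicate numbers paired the pools, but with 3 pools a group they cannot exclude a pairing. Same-numbered pools of a region had correlations of their deviations between −0.06 and 0.205, same-numbered pools of the regions in a condition between −0.12 and 0.04, and no pair of groups passed 0.1 for all 3 numbers. Of 45 library comparisons, 15 were highest with their own number, the count that picking 1 of 3 pools at random gives on average. All 3 libraries of a group were highest with their own number for dHC at 1 h with PL at 1 h and for naive dHC with dHC at 6 d. Fewer were so in every other pair of groups. The replicate block called Sgk1 in dHC at 1 h (0.43, adjusted p = 0.0112), changed no other call of the 3 genes, and moved the genes called at 1 h from 32 to 150 in dHC and from 206 to 312 in PL, at 6 d against 1 h in dHC from 158 to 549 and at 6 d against naive in dHC from 0 to 3. A block per pair of regions was not run, so the tests over all 18 libraries treat the pools as unpaired.

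Counts of genes called over the alternatives ran from 14 to 275 for dHC at 1 h (32), 87 to 574 for PL at 1 h (206), 18 to 623 for 6 d against 1 h in dHC (158), 149 to 675 in PL (317) and 6 to 117 for the regional difference at 1 h (14). At 6 d against naive they ran to 31 in dHC and 8 in PL, both without a filter, from 0, and to 12 for the regional difference. CPM on the plain library total moved no mean of the 3 genes by more than its SD.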

Other observations

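The spread between pools was set against the spread that counting alone would give at these depths. The coefficient of variation of 3 pools ran from 3.46% to 11.4% for Nr3c1, from 1.55% to 16.9% for Sgk1 and from 1.56% to 14.4% for Per1, while counting alone gives 3.17% to 3.87%, 3.11% to 5.62% and 2.91% to 4.56%. The spread was above that of counting in 3 of 6 groups for Nr3c1 and in 5 of 6 for Sgk1 and for Per1. Sgk1 was tightest in naive dHC at 1.55% and widest in dHC at 6 d at 16.9%, and Nr3c1 was widest in naive dHC at 11.4%. With 3 pools a group these values are themselves uncertain, and no test was made of them.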
